A study of Mus musculus with 21 samples.

Results

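Among CD4 T cells cultured with IL-12 and IL-21, cells with an active Il23r reporter (GFPpos) had higher levels of RNA of the peptide hormone gene Calca, the chemokine receptor gene Cxcr1, the surface protein gene Cd24a, the metallothionein genes Mt1 and Mt2 and the calcium-binding protein gene S100a6 than reporter-negative cells (GFPneg) sorted from cultures with the same cytokines. They had lower levels of RNA of the chromatin protein genes Hmgb2, Hmgn2 and H2afz and of the granzyme gene Gzmb. With median-ratio scaling, which sets the level of the libraries by their typical gene, only Hmgb2 and Hmgn2 of these genes passed the threshold, and without GFPpos replicate 3 no gene did. The comparison rests on 5 libraries of the 21 in the series, GFPpos replicates 1, 2 and 3 and GFPneg replicates 1 and 2, and covers every gene measured in them. The third GFPneg library had 1331 genes above 0, under the minimum of 5000 set for a library, and was left out. The libraries were taken by group label and by that minimum, and not by any gene's difference between the groups. The comparison and the gene lists were chosen with earlier results of these data known.

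The study asked which transcripts accompany reporter activity in each of several cytokine cultures. Both groups used here came from naive cells (CD4+, low for CD44, high for CD62L, negative for CD25) of spleen and lymph nodes of Il23r wt/eGFP mice. These mice carry an IRES-eGFP cassette in 1 copy of the Il23r locus that removes the function of that copy, so GFPpos and GFPneg cells alike had a single working copy of the receptor gene. The cells were activated with plate-bound antibodies to CD3 and CD28, kept for 5 days in IL-12 and IL-21 at 20 ng/ml each, and sorted by eGFP into GFPpos and GFPneg cells. Full-length cDNA libraries were made by a modified SMART-Seq2 protocol, which amplifies cDNA from small amounts of RNA. Whether replicates came from separate animals or cultures is not stated, so the p-values measure only how much these libraries vary, which may be technical variation. The age and sex of the mice are not given in the sources used here.

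IL-12 signals through STAT4 and, with the factor T-bet (Tbx21), drives naive CD4 T cells toward the Th1 type, which makes interferon gamma (Ifng). IL-21 signals mainly through STAT3, as do IL-6 and IL-23, the cytokines of the Th17 type. The IL-23 receptor pairs the chain encoded by Il23r with the chain encoded by Il12rb1, which the IL-12 receptor also uses, and a cell needs both to respond to IL-23.

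Levels are given in TPM, the abundance of a transcript as a share of its library, so that levels can be compared between genes of different length. Differences are limma estimates, GFPpos minus GFPneg, on log2(TPM + 1), with the standard error (SE), and adjusted p-values are by Benjamini-Hochberg over 8585 genes tested. The number of reads behind a value is unknown, and no counting error can be given. The 3 GFPpos libraries had 11240, 11723 and 12610 genes above 0 and the 2 GFPneg libraries had 11193 and 11534. Ribosomal protein genes took 36.9%, 42.7% and 36.2% of the TPM in GFPpos libraries and 37.1% and 42.5% in GFPneg libraries. Correlations of log2(TPM + 1) between libraries were 0.97 to 0.976 within GFPpos, 0.971 within GFPneg and 0.96 to 0.973 between the groups, so the libraries of both groups were nearly as alike as replicates.

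Markers of CD4 T cells were present and those of other cell types low. Cd4 was at 137, 112 and 154 TPM in GFPpos libraries and at 126 and 74.2 TPM in GFPneg libraries, and Lck, the kinase that starts T cell receptor signalling, at 431, 331 and 454 TPM and at 463 and 338 TPM. Of the 15 T cell markers in the list, none passed the threshold and 4 were higher at an unadjusted p under 0.05, against 10.7% of all genes. Among these, Cd3g, a chain of the CD3 complex, was at 638, 704 and 638 TPM in GFPpos libraries and at 388 and 429 TPM in GFPneg libraries (adjusted p = 0.102, and 0.0397 with the spread estimated from 16 libraries of all 7 groups). The part of T cell marker levels in the results was not tested. Cd8a was at 0, 0 and 0.1 TPM in GFPpos libraries and at 0.29 and 0 TPM in GFPneg libraries, although Cd8b1 was at 9.80, 5.09 and 4.89 TPM and at 5.65 and 8.14 TPM. The 14 myeloid and dendritic cell markers summed to 3.49 to 5.85 TPM in GFPpos libraries and 5.26 to 5.84 TPM in GFPneg libraries, and 8 of them were at 0 in all 5. The 10 B cell markers summed to 15.5 to 22.97 TPM in GFPpos libraries and 13.9 to 15.1 TPM in GFPneg libraries, with 4 at 0 in all 5. The 2 abundant enough to test differed in opposite directions, Ebf1 at 12.2, 8.93 and 16.1 TPM in GFPpos libraries and at 5.03 and 5.01 TPM in GFPneg libraries (adjusted p = 0.196) and Ighm at 5.14, 6.13 and 6.58 TPM in GFPpos libraries and at 8.03 and 9.83 TPM in GFPneg libraries (adjusted p = 0.544), and their part in the results was not tested. The 10 natural killer cell markers summed to at most 3.86 TPM in any of the libraries, and the 9 gamma-delta and innate-like markers to at most 1.56 TPM.

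The sort marker was checked first. Il23r, on the minus strand of chromosome 6 (GRCm38, chr6:67422932-67491855), was at 31.8, 24.2 and 36.4 TPM in GFPpos libraries and at 3.04 and 6.36 TPM in GFPneg libraries. The reporter row EGFP_IRES_IL23R was at 26.96, 23.3 and 34.97 TPM in GFPpos libraries and at 5.29 and 2.04 TPM in GFPneg libraries. Neither row overlapped between the groups, in the direction that the sort fixes, and their levels are therefore no finding. The rows may share reads. In bulk RNA of sorted cells, fewer cells with a transcript and less transcript per cell cannot be told apart.

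Of the 8585 genes tested, 51 (0.594%) differed with an adjusted p under 0.05, 45 (0.524%) of them higher and 6 (0.0699%) lower in GFPpos cells. At these shares a short gene list would mostly hold no call, so the absence of a call in a list is no finding. The levels of all 51 did not overlap between the groups, which 31.3% of all genes tested also met. Besides the pair of sort marker rows, the higher calls held 28 genes of other kinds, 10 T cell receptor segments, 2 mitochondrial tRNA rows, 1 small nucleolar RNA and 2 predicted genes or clones. An unadjusted p under 0.05 was reached by 920 genes (10.7%) higher and 154 (1.79%) lower in GFPpos cells.

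The background was not centred on 0. The median difference over all genes was 0.25 on the log2 scale, and 6498 genes (75.7%) lay above 0. What moved the median was not tested. With median-ratio scaling, which brings that median to -0.0025, 7 genes were called (0.0815%), 5 higher and 2 lower, against 45 higher and 6 lower without it. The 2 lower genes were Hmgb2 and Hmgn2, and the 5 higher rows were EGFP_IRES_IL23R, TrnT, TrnE, Trav4n-4 and Trav6-7-dv9. None of the 28 rises in genes of other kinds was called with that scaling (adjusted p 0.0518 to 0.426), although all 28 lay above 0. With the spread of 16 libraries 5 of the 28 were called, and among those lost were Calca (adjusted p = 0.0561), Cd24a (0.0643) and Mt2 (0.0983), as was Gzmb among the falls (0.0983). The number of calls also turned on single libraries. Without GFPpos replicate 3 no gene was called by limma (720 genes with an unadjusted p under 0.05), and without GFPneg replicate 2 the count was 128. With the third GFPneg library kept, 2 genes were called and 15 of the genes named by rule changed sign, among them Hmgn2, which was listed at 0 there and differed by 0.97, and Ifng, Mcm6 and Mgst2.

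**Figure D1:**
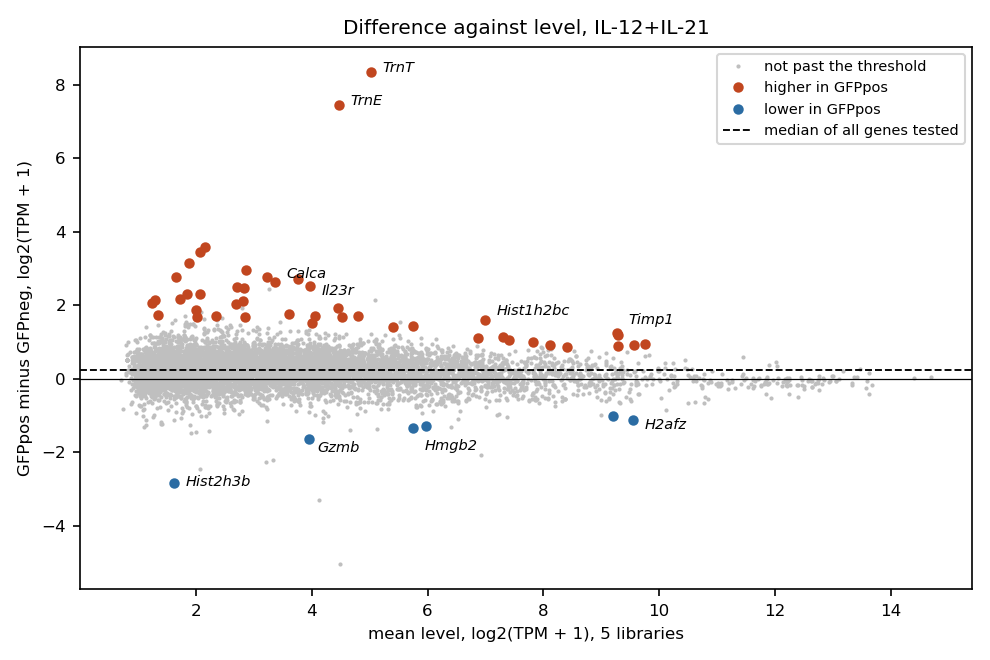
Difference between GFPpos and GFPneg cells on log2(TPM + 1) (vertical axis) against the mean level over the 5 libraries on the same scale (horizontal axis), 1 point for each of the 8585 genes tested. The 45 higher genes (red) include many of low level, the 6 lower genes (blue) include H2afz at high level, and the dashed line is the median of all genes, 0.25.

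The promoters of Hmgb2, Hmgn2 and H2afz, 3 of the 6 falls, are shown because promoters of cell cycle genes are known for CCAAT boxes, which the factor NF-Y binds. The windows run from 250 bases before to 50 bases after the RefSeq transcription start (GRCm38.p6), and capitals mark CCAAT on either strand (ATTGG where it lies on the other strand). The Hmgb2 window is chr8:57511593-57511892 (plus strand), the Hmgn2 window chr4:133967942-133968241 (minus strand) and the H2afz window, named H2az1 in RefSeq, chr3:137864237-137864536 (plus strand).
Hmgb2: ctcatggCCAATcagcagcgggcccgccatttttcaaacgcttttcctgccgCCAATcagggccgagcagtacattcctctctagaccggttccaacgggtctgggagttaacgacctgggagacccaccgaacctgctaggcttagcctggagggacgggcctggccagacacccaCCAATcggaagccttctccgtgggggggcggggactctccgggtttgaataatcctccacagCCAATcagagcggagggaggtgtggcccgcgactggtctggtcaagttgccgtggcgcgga
Hmgn2: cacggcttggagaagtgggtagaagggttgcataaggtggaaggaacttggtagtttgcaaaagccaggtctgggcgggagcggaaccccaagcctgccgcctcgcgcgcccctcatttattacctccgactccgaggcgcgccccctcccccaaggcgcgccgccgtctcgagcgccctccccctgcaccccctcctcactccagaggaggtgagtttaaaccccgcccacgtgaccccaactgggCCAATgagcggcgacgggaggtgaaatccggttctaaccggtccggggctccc
H2afz: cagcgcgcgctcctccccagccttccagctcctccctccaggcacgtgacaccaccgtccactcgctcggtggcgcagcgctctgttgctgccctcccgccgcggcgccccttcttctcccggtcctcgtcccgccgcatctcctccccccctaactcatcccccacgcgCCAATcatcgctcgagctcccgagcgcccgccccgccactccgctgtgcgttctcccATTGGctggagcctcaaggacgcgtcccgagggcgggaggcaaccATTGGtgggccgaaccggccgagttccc
The Hmgb2 window holds 4 matches, the Hmgn2 window 1 and the H2afz window 3. A match was found in 37.4% of the 32851 RefSeq windows of this length, so that 1 match is common, while 11.7% of the windows held at least 2. Of the listed genes with a window, 21 of 24 mitosis genes (87.5%), 16 of 24 genes of the HMG protein and histone variant list (66.7%) and 15 of 24 DNA replication genes (62.5%) held a match. The same sets were also above all windows in the share with an unrelated element, the metal response core (TGCACNC or TGCGCNC), at 12 of 24 mitosis genes (50%), 10 of 24 of the HMG protein and histone variant list (41.7%) and 15 of 24 DNA replication genes (62.5%), against 25.7% of all windows. A match describes letters and not binding, and no factor was measured here.

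Hmgb2, a high-mobility-group protein that bends DNA and is abundant in dividing lymphocytes, was at 41.05, 30.4 and 37.9 TPM in GFPpos libraries and at 97.7 and 86.7 TPM in GFPneg libraries. It fell by 1.32 on the log2 scale (SE 0.26, adjusted p = 0.015, limma). Hmgn2, which binds nucleosomes, was at 41.2, 39.5 and 49.4 TPM in GFPpos libraries and at 107 and 106 TPM in GFPneg libraries, a difference of -1.28 ± 0.25 (adjusted p = 0.0142). H2afz encodes the histone variant H2A.Z, and its levels were 522, 601 and 532 TPM in GFPpos libraries and 1120.5 and 1253 TPM in GFPneg libraries (-1.10 ± 0.17, adjusted p = 0.00282). In each of the 3 genes the lowest GFPneg library lay well above the highest GFPpos library. For H2afz the call was lost with median-ratio scaling (adjusted p = 0.152), where its difference was -1.41.

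Cultures with IL-12 alone, sorted as GFPneg, offer levels beside these, from replicates 2 and 3 with 34.6% and 34.4% of the TPM in ribosomal protein genes. There Hmgb2 was at 82.4 and 93.2 TPM, Hmgn2 at 137 and 106 TPM and H2afz at 1111 and 1301 TPM. These levels were near those of the GFPneg cells of IL-12+IL-21 and above all 3 GFPpos libraries. The first IL-12 library, in which ribosomal protein genes took 61.0% of the TPM, was at 11.8, 13.8 and 54.7 TPM. No test was run between these cultures.

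Of the 25 tested genes of HMG proteins and histone variants, 3 fell past the threshold, those named above, and none rose, against 0.0699% lower and 0.524% higher over all genes. Like the other lists, this list was chosen with earlier results of these data known. Its 3 called members were also in the fixed set of named genes, so the counts are no independent support. A further look at the list without adjustment found 12 lower and 1 higher at an unadjusted p under 0.05, against 1.79% and 10.7% of all genes. Its median difference was -0.46, and -0.76 with median-ratio scaling. Hmgb1 was at 57.9, 53.1 and 61.3 TPM in GFPpos libraries and at 102 and 84.7 TPM in GFPneg libraries (adjusted p = 0.245). Hmgn3, a relative of Hmgn2, lay the other way, at 44.6, 36.6 and 51.9 TPM in GFPpos libraries and at 21.9 and 22.3 TPM in GFPneg libraries (adjusted p = 0.148). Hmgn5, another relative, differed by -0.0011 with overlapping libraries, and neither it nor Hmgb1 nor Hmgn3 passed the threshold.

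Core histone genes appeared on both sides. Hist1h2ao was at 369, 543 and 444 TPM in GFPpos libraries and at 865 and 924 TPM in GFPneg libraries, a fall of 1.00 on the log2 scale with an SE of 0.19 (adjusted p = 0.0148). Hist2h3b was listed at 0 in 2 of 3 GFPpos libraries, at 1.72 TPM in the other, and at 8.96 and 8.77 TPM in GFPneg libraries (adjusted p = 0.00141). Hist1h2bc went the other way, with 204, 156 and 238 TPM in GFPpos libraries and 62.04 and 66.9 TPM in GFPneg libraries (1.59 ± 0.24, adjusted p = 0.00138). Clustered histone genes have near-identical copies that share reads, so the values of single histone genes are uncertain.

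Genes that copy DNA and divide the cell lay lower in GFPpos cells as groups, with no member past the threshold. Among 28 tested DNA replication genes the median difference was -0.55, and 2 lay above 0, against 75.7% of all genes. Of the 28, 19 were lower in every GFPpos library than in both GFPneg libraries (3.98% of all genes). On the lower side 10 had an unadjusted p under 0.05 (1.79% of all genes). Mcm6, a subunit of the replicative helicase, was at 43.8, 42.6 and 56.5 TPM in GFPpos libraries and at 91.2 and 69.3 TPM in GFPneg libraries (adjusted p = 0.24). The ribonucleotide reductase gene Rrm2 was at 80.3, 86.3 and 89.6 TPM in GFPpos libraries and at 138 and 117 TPM in GFPneg libraries (adjusted p = 0.311). Pcna, the sliding clamp of replication, differed by 0.06.

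Among 27 tested mitosis genes the median difference was -0.44 and 1 lay above 0, against 75.7% of all genes. Of the 27, 10 had an unadjusted p under 0.05, all lower, against 1.79% of all genes. Ube2c, which tags mitotic proteins for destruction, was at 109, 104 and 98.3 TPM in GFPpos libraries and at 210.1 and 148 TPM in GFPneg libraries (adjusted p = 0.175). The tubulin genes Tuba1b and Tubb5, which stand in this list and in that of the tubulins, were at 1632, 1304 and 1480.4 TPM and at 639.7, 649.7 and 559 TPM in GFPpos libraries, against 2677 and 1966 TPM and 1013 and 866 TPM in GFPneg libraries (adjusted p = 0.114 for Tuba1b and 0.156 for Tubb5). With median-ratio scaling the medians were -0.80 over the replication genes and -0.73 over the mitosis genes.

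Heat shock chaperone genes were the next lowest group, with a median of -0.41 over 23 tested and 3 above 0 (75.7% of all genes). At an unadjusted p under 0.05, 6 were lower, against 1.79% of all genes. The most abundant, Hspa8, was at 4979, 4087 and 5109.9 TPM in GFPpos libraries and at 7644 and 5646 TPM in GFPneg libraries (adjusted p = 0.208). None of them passed the threshold.

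**Figure D2:**
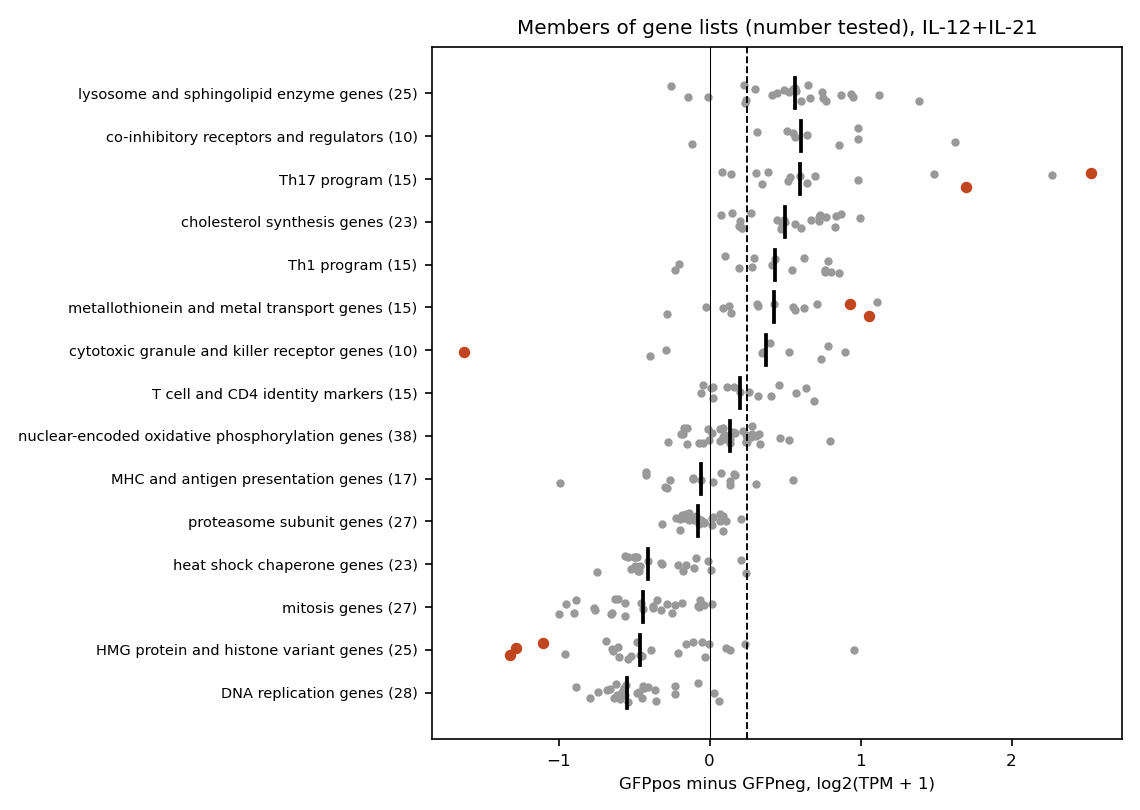
Difference between GFPpos and GFPneg cells on log2(TPM + 1) for the tested members of 15 gene lists, 1 point per gene, with the number tested in brackets, the median as a bar and genes with an adjusted p under 0.05 in red. Replication, HMG, mitosis and heat shock lists lie below 0, lysosome, Th17 and cholesterol lists above the dashed median of all genes, 0.25.

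Gzmb, which encodes the cytotoxic protease granzyme B, was at 8.72, 7.58 and 10.3 TPM in GFPpos libraries and at 46.99 and 18.2 TPM in GFPneg libraries. It fell by 1.63 on the log2 scale (SE 0.37, adjusted p = 0.044), with both GFPneg libraries above all GFPpos libraries and far apart from each other. With median-ratio scaling the call was lost (adjusted p = 0.122). In IL-12 alone, GFPneg replicates 2 and 3 were at 290.4 and 509 TPM. Of the other cytotoxic genes, Nkg7, a granule membrane protein gene, was at 874, 691 and 1019 TPM in GFPpos libraries and at 619 and 420.4 TPM in GFPneg libraries (adjusted p = 0.135), and Serpinb9, an inhibitor of granzyme B, at 123, 91.97 and 118 TPM in GFPpos libraries and at 62.5 and 55.1 TPM in GFPneg libraries (adjusted p = 0.115). Of 10 tested genes in the list, Gzmb alone was called, against 0.594% of all genes, and 7 of the 10 lay above 0, against 75.7%.

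Of the rises, those in genes other than receptor segments, tRNAs and sort markers were not called with median-ratio scaling. Calca, which encodes calcitonin and, by splicing, the neuropeptide CGRP, was at 26.3, 14.9 and 21.6 TPM in GFPpos libraries and at 1.23 and 4.24 TPM in GFPneg libraries. The difference was 2.65 ± 0.39 (adjusted p = 0.00138), and the lowest GFPpos library stood above the highest GFPneg library. Ramp3 encodes an accessory protein that shapes receptors of the calcitonin family, and it was at 25.6, 23.8 and 28.3 TPM in GFPpos libraries and at 5.69 and 9.03 TPM in GFPneg libraries (1.71 ± 0.32, adjusted p = 0.0109). Both genes thus passed the threshold in the same direction. Calca is a protein-coding gene on the minus strand of chromosome 7 (GRCm38, chr7:114631478-114636357), and it was at 6.16 and 2.16 TPM in IL-12 GFPneg replicates 2 and 3.

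Cxcr1, known in humans as an IL-8 receptor of neutrophils, was at 9.59, 12.8 and 12.5 TPM in GFPpos libraries and at 0.9 and 3.42 TPM in GFPneg libraries, a rise of 2.11 with an SE of 0.39 (adjusted p = 0.0109). The gene lies on the minus strand of chromosome 1 (GRCm38, chr1:74191785-74194631). Its close relative Cxcr2 was at 389.9, 294 and 199 TPM in GFPpos libraries and at 484 and 356 TPM in GFPneg libraries (adjusted p = 0.374). The libraries overlapped for Cxcr2 and not for Cxcr1. The row of Xaf1, an interferon-stimulated gene on chromosome 11, had levels close to those of Cxcr2 in every library used. It was at 381, 299 and 173 TPM in GFPpos libraries and at 492 and 336.5 TPM in GFPneg libraries. Whether these rows share reads was not tested, so the level of Cxcr2 is uncertain. Of the 11 erythroid and neutrophil markers, 8 were listed at 0 in all 5 libraries, S100a8, S100a9, Mpo and Elane among them. Csf3r was at 4.56, 4.24 and 3.23 TPM in GFPpos libraries and at 7.87 and 6.67 TPM in GFPneg libraries, and Ly6g at 10.9, 9.71 and 2.43 TPM in GFPpos libraries and at 6.18 and 6.51 TPM in GFPneg libraries, neither past the threshold.

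Timp1, an inhibitor of matrix metalloproteinases, was at 827, 667 and 1218 TPM in GFPpos libraries and at 403 and 334 TPM in GFPneg libraries (1.25 ± 0.22, adjusted p = 0.00741). Cst3, the cathepsin inhibitor cystatin C, differed by 0.91 ± 0.20 (adjusted p = 0.0328). Cd24a, a glycosylated surface protein gene, was at 32.8, 26.97 and 51.9 TPM in GFPpos libraries and at 11.8 and 9.11 TPM in GFPneg libraries (1.70 ± 0.32, adjusted p = 0.0123). GFPpos replicate 3 was the highest library for both Timp1 and Cd24a, and no GFPpos library was as low as a GFPneg library.

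S100a6, S100a13 and S100a11, genes of small calcium-binding proteins, were among the calls and are named after their values were seen. S100 genes were not a list, and how many of them were tested was not counted, so nothing follows for the family. S100a6 was at 779.5, 734 and 1137 TPM in GFPpos libraries and at 395 and 369 TPM in GFPneg libraries (1.18 ± 0.20, adjusted p = 0.00632). S100a13 differed by 1.10 ± 0.23 and S100a11 by 0.87 ± 0.19 (adjusted p = 0.0287 and 0.0404), and S100a11 was called in 0 of the 5 fits that left out 1 library. The 3 genes lie on chromosome 3 (GRCm38), S100a6 at chr3:90612882-90624181, S100a13 at chr3:90514435-90524581 and S100a11 at chr3:93520488-93526287.

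Metallothioneins bind zinc and copper, and their genes carry metal response elements to which the zinc-sensing factor MTF-1 binds. The promoters of the called pair are shown with the core of that element in capitals (TGCACNC or TGCGCNC, either strand), since both genes rose. The Mt1 window is chr8:94178839-94179138 and the Mt2 window chr8:94172368-94172667, both on the plus strand of GRCm38.p6 from RefSeq, and of the same 300-base length as above.
Mt1: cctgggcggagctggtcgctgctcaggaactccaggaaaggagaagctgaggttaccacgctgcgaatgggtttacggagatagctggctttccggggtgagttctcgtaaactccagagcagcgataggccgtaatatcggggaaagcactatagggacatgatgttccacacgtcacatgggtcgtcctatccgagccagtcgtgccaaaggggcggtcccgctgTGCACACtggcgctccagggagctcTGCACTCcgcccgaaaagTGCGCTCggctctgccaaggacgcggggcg
Mt2: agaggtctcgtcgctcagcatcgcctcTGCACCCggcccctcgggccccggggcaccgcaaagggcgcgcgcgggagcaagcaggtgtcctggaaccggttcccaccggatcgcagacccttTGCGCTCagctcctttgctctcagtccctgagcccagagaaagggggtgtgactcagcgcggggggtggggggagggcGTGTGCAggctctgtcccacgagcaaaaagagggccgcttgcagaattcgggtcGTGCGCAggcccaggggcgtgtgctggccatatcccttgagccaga
The Mt1 window holds 3 matches and the Mt2 window 4, while 25.7% of all 32851 windows hold at least 1 and 7.11% at least 2. Overlap with other motifs was not counted.

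Mt1 was at 921, 1007 and 1011 TPM in GFPpos libraries and at 528 and 498 TPM in GFPneg libraries (0.93 ± 0.17, adjusted p = 0.0109). Mt2 was at 215, 224 and 244 TPM in GFPpos libraries and at 98.8 and 119 TPM in GFPneg libraries (1.06 ± 0.21, adjusted p = 0.0193). The groups were tight and apart for both genes. Of the 15 tested genes for metallothioneins and metal transport, these 2 were called, against 0.524% of all genes called higher. Both were in the fixed set of named genes. The list's median was 0.42, or 0.13 with median-ratio scaling. Mtf1, the gene of the zinc-sensing factor, differed by 0.57 and did not pass the threshold. The haem-degrading enzyme gene Hmox1 was at 3.54, 5.76 and 4.22 TPM in GFPpos libraries and at 1.81 and 1.26 TPM in GFPneg libraries (adjusted p = 0.214).

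Atp6v0d2, a subunit of the proton pump that acidifies lysosomes, was at 31.99, 26.7 and 55.6 TPM in GFPpos libraries and at 8.62 and 8.91 TPM in GFPneg libraries (1.93 ± 0.33, adjusted p = 0.00632). Dcxr, a reductase of sugars and dicarbonyls, was at 181, 193 and 286 TPM in GFPpos libraries and at 98.03 and 96.4 TPM in GFPneg libraries (1.14 ± 0.23, adjusted p = 0.0242). Smox, the spermine oxidase gene, differed by 1.00 ± 0.22 (adjusted p = 0.0314). Each of the 3 had no overlap between groups. Cox7a1, a cytochrome c oxidase subunit gene, was at 5.12, 8.77 and 7.42 TPM in GFPpos libraries and at 0 and 1.58 TPM in GFPneg libraries (adjusted p = 0.00984). The glutathione transferase gene Mgst2 was at 5.59, 8.47 and 4.08 TPM in GFPpos libraries and at 0 and 0.88 TPM in GFPneg libraries. It reached the level for testing through the 3 GFPpos libraries alone, was called in 1 of the 5 fits that left out 1 library, and differed by -0.60 with the third GFPneg library kept.

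Ppp1r14b, an inhibitor of protein phosphatase 1, was at 8.04, 10.6 and 13.2 TPM in GFPpos libraries and at 2.32 and 2.80 TPM in GFPneg libraries (1.69 ± 0.36, adjusted p = 0.0287). Gap43, known from growing axons, was at 49.9, 28.1 and 58.6 TPM in GFPpos libraries and at 13.5 and 11.7 TPM in GFPneg libraries (1.72 ± 0.32, adjusted p = 0.0109). Crabp2, which carries retinoic acid, was among the most abundant of the called genes, at 1201, 1144 and 1038 TPM in GFPpos libraries and at 662 and 508 TPM in GFPneg libraries (0.96 ± 0.18, adjusted p = 0.0109). Anapc13, a subunit of the anaphase-promoting complex, was at 61.05, 61.6 and 62.98 TPM in GFPpos libraries and at 17.7 and 28.7 TPM in GFPneg libraries (1.42 ± 0.28, adjusted p = 0.015), while no tested gene of the mitosis list was called. Ifitm3, a membrane protein that restricts viral entry, differed by 0.91 ± 0.18 (adjusted p = 0.0156). The actin-binding thymosin gene Tmsb15b1 was at 18.4, 22.7 and 8.54 TPM in GFPpos libraries and at 0 and 3.47 TPM in GFPneg libraries (adjusted p = 0.00649), and Aamdc at 7.25, 10.9 and 13.7 TPM in GFPpos libraries and at 0.85 and 3.11 TPM in GFPneg libraries (adjusted p = 0.0173). The small GTPase gene Rhoc, and Hdhd3, Lrrc51 and Tmem141, were also higher past the threshold. In GFPneg replicates 2 and 3 of IL-12 alone, Ppp1r14b was at 8.13 and 8.14 TPM, within the range of the GFPpos libraries. Aamdc was at 10.1 and 4.99 TPM there, and Tmsb15b1 at 0 and 9.16 TPM.

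**Figure D3:**
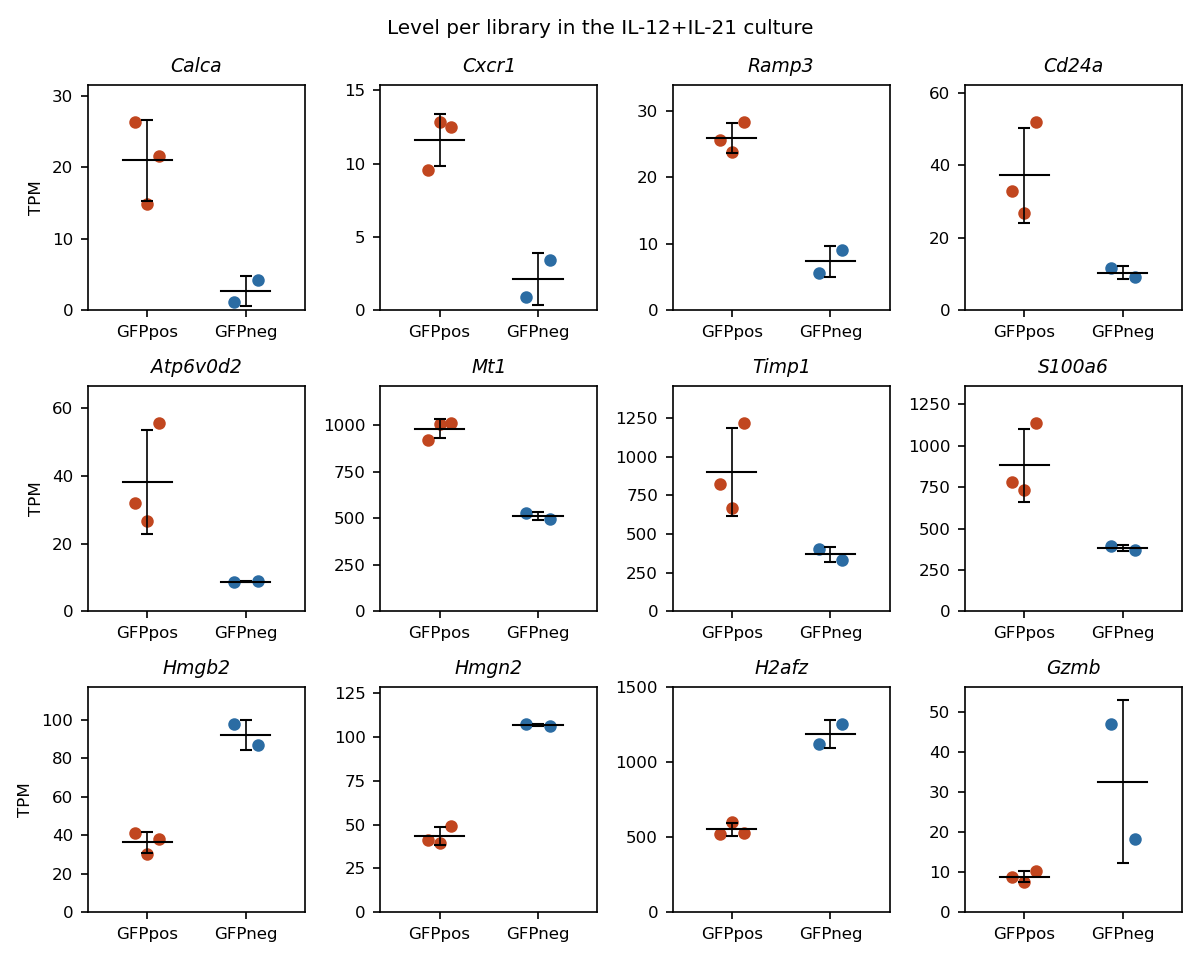
TPM per library (vertical axes, each from 0) of 12 genes past the threshold in the 3 GFPpos and 2 GFPneg libraries, with the mean as a line and the SD as a bar. The groups do not overlap in any of the 12 genes, which also held for all 51 calls and for 31.3% of all genes tested. The 2 GFPneg libraries of Gzmb are at 47.0 and 18.2 TPM.

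Of the genes that define the Th1 type, none passed the threshold. Ifng was at 450.3, 233 and 299.7 TPM in GFPpos libraries and at 231 and 131 TPM in GFPneg libraries, a difference of 0.86 ± 0.27 that did not pass (adjusted p = 0.197), and the lowest GFPpos library was barely above the highest GFPneg library. Tbx21 was at 54.02, 42.8 and 121 TPM in GFPpos libraries and at 32.9 and 70.8 TPM in GFPneg libraries (adjusted p = 0.635), with overlap. In IL-12 alone, Ifng was at 1121 and 1474 TPM and Tbx21 at 49.7 and 79.4 TPM in GFPneg replicates 2 and 3. The receptor chain genes Il12rb1 and Il12rb2 differed by 0.47 ± 0.28 and 0.28 ± 0.23 (adjusted p = 0.498 and 0.627). None of 15 tested genes of the Th1 list was called, against 0.594% of all genes, and 13 lay above 0, against 75.7%. The list's median was 0.43, or 0.13 with median-ratio scaling.

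Th17 cytokine RNA was low in both groups. Il17f was at 5.44, 3.24 and 6.19 TPM in GFPpos libraries and at 1.70 and 0.59 TPM in GFPneg libraries (1.49 ± 0.39, adjusted p = 0.0988). Il22 was at 6.50, 17.3 and 2.45 TPM in GFPpos libraries and at 0 and 1.62 TPM in GFPneg libraries (2.27 ± 0.54, adjusted p = 0.0661), and a near-identical copy may share its reads. Il17a was at 0.46, 0.54 and 2.47 TPM and at 0.43 and 0.89 TPM and was not tested. The transcription factor gene Maf was at 1.02, 3.63 and 3.0 TPM in GFPpos libraries and at 0.48 and 0.93 TPM in GFPneg libraries (adjusted p = 0.306). All 15 tested genes of the Th17 list lay above 0 (75.7% of all genes), with a median of 0.60 (0.34 with median-ratio scaling). These values include Il23r, whose direction the sort fixed. The 2 called were Il23r itself and Cd24a, against 0.524% of all genes called higher, and only the call of Cd24a was not fixed by the sort.

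Genes of other helper and regulatory types were low in level or did not pass the threshold. Foxp3, the factor of regulatory T cells, was at 0.15, 0 and 0.04 TPM in GFPpos libraries and at 1.47 and 1.23 TPM in GFPneg libraries. It was not tested, since 3 libraries had to reach 1 TPM and only the 2 GFPneg libraries did. Gata3, the Th2 factor, was at 2.63, 1.23 and 2.18 TPM in GFPpos libraries and at 3.70 and 4.61 TPM in GFPneg libraries (adjusted p = 0.38). Csf2 was listed at 0 in all 5 libraries, and Il10 was at 0, 1.43 and 0.89 TPM and at 0.75 and 0.78 TPM. Il21 itself was at 70.5, 47.3 and 68.1 TPM in GFPpos libraries and at 52.2 and 43.7 TPM in GFPneg libraries, with overlap (adjusted p = 0.592). Gata3 was lower in every GFPpos library than in both GFPneg libraries, as were 3.98% of all genes tested, and Foxp3 was near 0 in GFPpos cells.

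Among co-inhibitory receptors and regulators, none of 10 tested genes was called (0.594% of all genes) and 9 lay above 0 (75.7% of all genes). The median was 0.61 (0.32 with median-ratio scaling). Pdpn was at 6.20, 3.30 and 9.58 TPM in GFPpos libraries and at 1.04 and 1.44 TPM in GFPneg libraries (adjusted p = 0.0786), and Ctla4, a brake on costimulation, at 99.2, 81.2 and 93.3 TPM in GFPpos libraries and at 49.6 and 50.1 TPM in GFPneg libraries (adjusted p = 0.136). The migration receptor S1pr1 was at 29.8, 24.3 and 39.6 TPM in GFPpos libraries and at 15.2 and 11.96 TPM in GFPneg libraries (adjusted p = 0.115). All 3 had no overlap between the groups, as 27.3% of all genes had in the higher direction.

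Lysosomal and cholesterol genes lay high as groups, with no call in either. Of 25 tested lysosome and sphingolipid enzyme genes, 22 lay above 0, against 75.7% of all genes. On the higher side 11 had an unadjusted p under 0.05, against 10.7% of all genes. The median was 0.57 (0.28 with median-ratio scaling). Smpdl3a, a nucleotide-cleaving relative of acid sphingomyelinase, was at 11.9, 13.3 and 13.4 TPM in GFPpos libraries and at 3.90 and 4.72 TPM in GFPneg libraries (adjusted p = 0.072). Glb1, the lysosomal beta-galactosidase gene, was at 21.7, 22.1 and 25.7 TPM in GFPpos libraries and at 11.6 and 8.72 TPM in GFPneg libraries (adjusted p = 0.119). All 23 tested cholesterol synthesis genes lay above 0 (75.7% of all genes), 7 with an unadjusted p under 0.05 (10.7% of all genes). The median was 0.50 (0.21 with median-ratio scaling). Ebp, a sterol isomerase gene, was at 35.2, 25.8 and 40.0 TPM in GFPpos libraries and at 20.1 and 16.5 TPM in GFPneg libraries (adjusted p = 0.246).

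Several abundant groups lay below the median of all genes. Over 24 genes of glycolysis and the hypoxia response the median was -0.05, over 27 proteasome genes -0.08 and over 17 genes of MHC and antigen presentation -0.06, with no call in any. The nuclear-encoded genes of oxidative phosphorylation had a median of 0.13 over 38 tested and the T cell identity markers of 0.20 over 15, and with median-ratio scaling these signs turned, to -0.17 and -0.10. H2-Q7, a class Ib MHC gene with close copies, was at 598, 494 and 195 TPM in GFPpos libraries and at 935 and 633 TPM in GFPneg libraries (adjusted p = 0.203).

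Part of the calls were rows of short or variable RNA. TrnT, the mitochondrial threonine tRNA (67 bases, MT 15289 to 15355), was at 302, 493 and 235 TPM in GFPpos libraries and listed at 0 in both GFPneg libraries, and TrnE, the glutamate tRNA (69 bases, MT 14071 to 14139), at 263, 143 and 136 TPM in GFPpos libraries and at 0 in both GFPneg libraries. The small nucleolar RNA row Snora81 was at 14.4, 8.0 and 3.92 TPM in GFPpos libraries and at 0 in both GFPneg libraries. Elsewhere in the series the tRNA rows switched between 0 and high levels among replicates. TrnE, for example, was at 0, 225 and 455 TPM in IL-1b+IL-6+IL-23 GFPneg libraries. In all, 8 of the 45 higher rows were listed at 0 in both GFPneg libraries and 11 were below 1 TPM there.

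Of 65 T cell receptor segments tested, 50 lay above 0, near the 75.7% of all genes. From the alpha (Trav) and beta (Trbv) loci 10 were called (15.4%), all higher in GFPpos cells, against 0.524% of all genes. The direction was partly fixed by the level for testing, since 5 of the 10 were listed at 0 in both GFPneg libraries and a segment of the opposite pattern was left out. Trbv31, the most abundant, was at 90.7, 53.3 and 101 TPM in GFPpos libraries and at 36.7 and 22.2 TPM in GFPneg libraries (1.43 ± 0.30, adjusted p = 0.0287). Variable segments together summed to 1066, 821 and 1073 TPM in GFPpos libraries and to 782 and 539.7 TPM in GFPneg libraries. The sum was thus higher in every GFPpos library. The constant gene Trac was also higher in each, at 343, 335 and 301 TPM in GFPpos libraries and at 285 and 281 TPM in GFPneg libraries, without passing the threshold (adjusted p = 0.676).

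The rule on low values favoured genes present in GFPpos cells, since 3 libraries had to reach 1 TPM and GFPneg had 2. It kept 126 genes at 1 TPM or more in all GFPpos and in no GFPneg libraries, 11 of them called, and left out 17 genes of the opposite pattern. The highest of these were Trav4d-4, at 2.92 and 10.1 TPM in GFPneg libraries and listed at 0 in GFPpos libraries, 0610010B08Rik, Gm5861, the mitotic gene Troap and Clec2i. Troap was at 0.65, 0.65 and 0.84 TPM in GFPpos libraries and at 1.22 and 2.41 TPM in GFPneg libraries. Foxp3 was also among the 17 genes left out.

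To see where the IL-12+IL-21 differences depart from reporter activity in a Th17 culture, the difference was set against that of cells in IL-1b at 20 ng/ml, IL-6 at 25 ng/ml and IL-23 at 20 ng/ml, also for 5 days, with 3 GFPpos and 3 GFPneg libraries and no library in common. Of 9255 genes tested for an interaction, 0 were called by limma (469, or 5.07%, with an unadjusted p under 0.05). No gene can thus be called particular to IL-12+IL-21 by this test. The absence of calls does not show that the differences are alike in both cultures. Cxcr1 had an interaction of 2.11 with an SE of 0.47 (unadjusted p = 0.000544, adjusted p = 0.512). It was at 0, 0 and 0.35 TPM in GFPpos libraries and at 0, 0 and 0.33 TPM in GFPneg libraries of IL-1b+IL-6+IL-23. Calca was at 2.02, 0 and 0 TPM in GFPpos libraries and at 0, 0.53 and 0.89 TPM in GFPneg libraries there, with an interaction of 2.63 and an SE of 0.67 (adjusted p = 0.522). Both genes were close to 0 in that culture in either sort.

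Other genes lay to the same side in both cultures. Cd24a was at 83.5, 61.7 and 74.3 TPM in GFPpos libraries and at 14.8, 11.8 and 17.2 TPM in GFPneg libraries of IL-1b+IL-6+IL-23. Mt1 was at 1488, 1088 and 1332 TPM in GFPpos libraries and at 663, 621 and 789 TPM in GFPneg libraries there, and Gzmb at 0.49, 2.0 and 2.12 TPM in GFPpos libraries and at 5.91, 6.95 and 7.48 TPM in GFPneg libraries. Without the sort marker and tRNA rows, 34 of the 41 called rows above 0 in IL-12+IL-21 also lay above 0 in the Th17 culture (82.9%), against 67.2% of all genes above 0, and 6 of 6 lay below 0 in both, against 62.6% of all genes below 0. Hmgb2 was at 18.8, 18.2 and 20.1 TPM in GFPpos libraries and at 26.6, 29.2 and 24.9 TPM in GFPneg libraries of the Th17 culture (interaction -0.85, SE 0.27, adjusted p = 0.798). Over the DNA replication genes the median difference there was -0.056, against -0.55 in IL-12+IL-21. It was -0.11 against -0.44 over the mitosis genes and -0.13 against -0.46 over the HMG protein and histone variant list. Over the heat shock list it was -0.35 against -0.41, and over all genes 0.073 against 0.25. These medians were not tested. The largest difference between the cultures by p was that of Il17a, at -2.70 with an SE of 0.52 (adjusted p = 0.512).

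**Figure D4:**
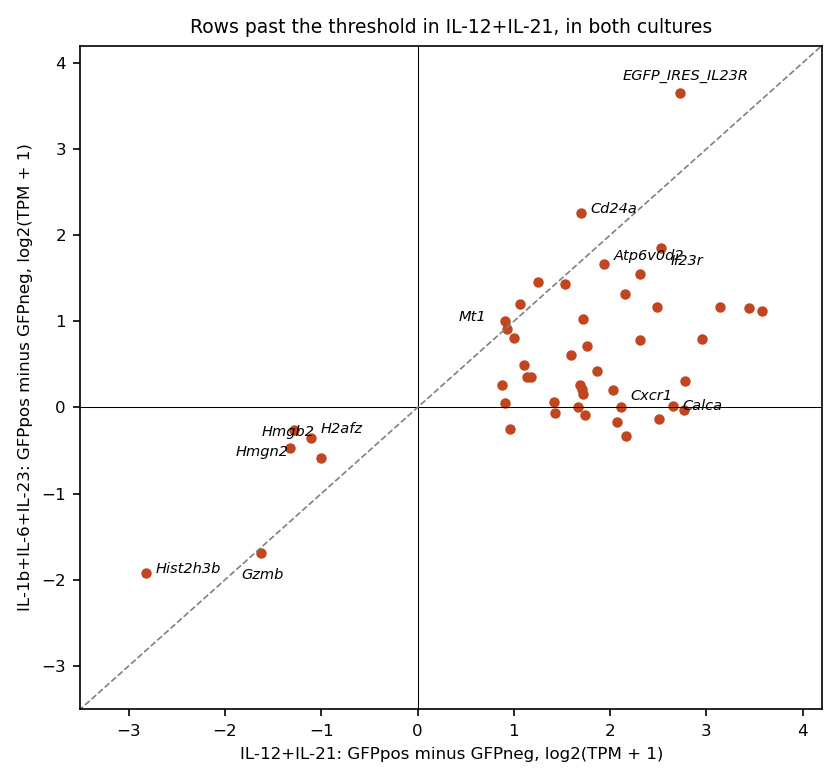
Difference between GFPpos and GFPneg cells on log2(TPM + 1) in IL-12+IL-21 (horizontal axis) and for the IL-1b+IL-6+IL-23 culture (vertical axis), for 49 rows past the threshold in IL-12+IL-21 (the 2 mitochondrial tRNA rows are left out), with the diagonal dashed. Calca and Cxcr1 lie near 0 on the vertical axis, Cd24a and the reporter row above the diagonal, and all 6 falls lie below 0 in both cultures.

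**Figure D5:**
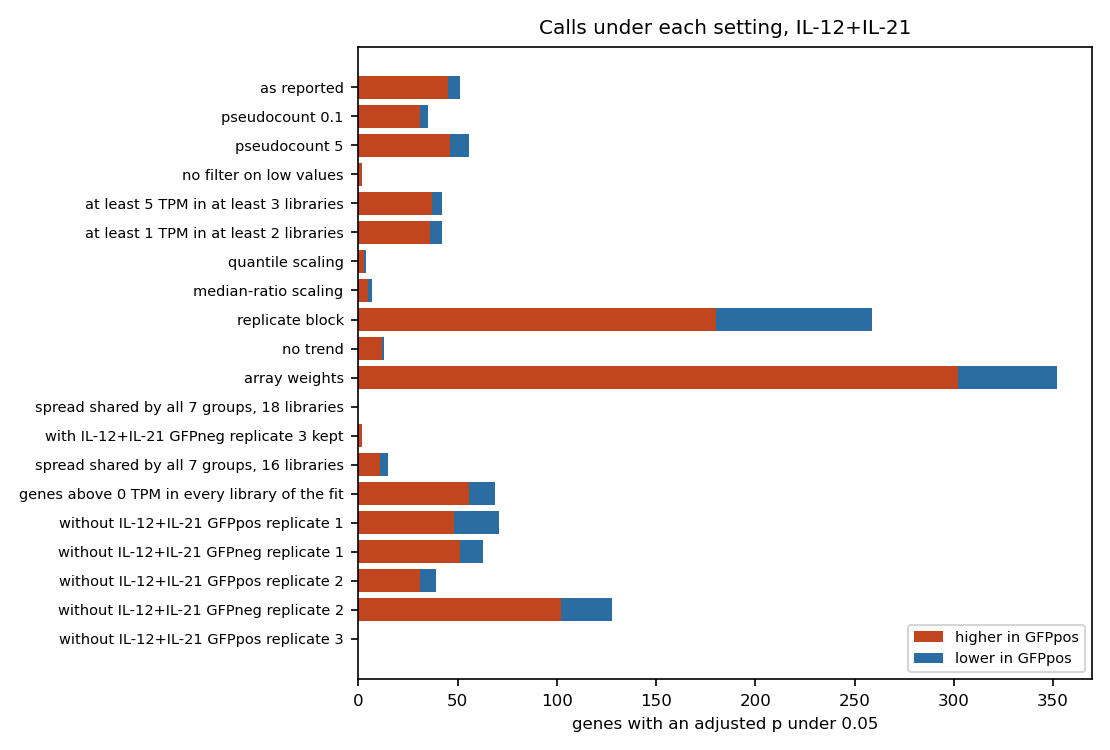
Number of genes with an adjusted p under 0.05 (horizontal axis) as reported (51) and under each other setting, split into higher (red) and lower (blue) in GFPpos cells. The counts run from 0, without GFPpos replicate 3 or with the spread shared by 18 libraries, to 352 with array weights.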

How the data were processed

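RNA of sorted CD4 T cells was measured in 21 libraries, 5 of them used for the comparison. The authors deposited 1 table of TPM, the share of each transcript in its library, for 23415 gene rows. The tools named in the submitters' processing notes are RSEM 1.2.31, Bowtie2 2.2.9 and Trimmomatic 0.32, and the build named is GRCm38. How they were combined and set, the annotation and whether strand was used are not stated there or in the labels. TPM keeps no depth, so the precision of single values is unknown, and overlapping, antisense or near-identical genes may share reads. Of the rows, 22434 matched GENCODE M21, 921 matched RefSeq symbols or synonyms and 60 matched neither.

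Genes at 1 TPM or more in at least 3 libraries were tested with limma 3.58.1 (R 4.3.3) on log2(TPM + 1), which understates changes of low genes, with a trended empirical Bayes spread, Benjamini-Hochberg adjustment and a threshold of 0.05. The same model gave the interaction with IL-1b+IL-6+IL-23 over 11 libraries. The scripts were tested on simulated data. Errors of differences are SE.

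The members and gene lists were chosen with earlier results of these data known. The rule for naming genes had several parts. Up to 12 rises and 12 falls past the threshold were named. They had no overlap and a mean of at least 5 TPM in the higher group. Added were the 3 members of each list with the smallest p, and 5 genes left out by the filter. A fixed set held T cell genes and also Calca, Cxcr1, Hmgb2, Hmgn2, H2afz, Mt1, Mt2, Smpdl3a, Ppp1r14b and Dcxr. Like the lists, this set was chosen with earlier results known. Other genes past the threshold, and further list members, were named after their values were seen. Other settings were pseudocounts, filters, scalings, library weights, the spread of all 7 groups, a replicate block and each library left out. Further settings, the 16-library spread and genes above 0 in every library, were added after seeing the data.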

Additional observations from a re-analysis of the deposited data

How the results depend on the processing

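Of 51 calls between GFPpos and GFPneg cells in IL-12+IL-21, 35 remained with a pseudocount of 0.1 and 42 with a minimum of 5 TPM, each without an added call. Counts were 56 with a pseudocount of 5, 42 with 1 TPM in at least 2 libraries and 69 with genes above 0 in every library. They were 2 without a filter, 4 with quantile scaling, 7 with median-ratio scaling, 13 without a trend, 352 with array weights, 15 with the spread of 16 libraries, 0 with that of 18 (204 genes at an unadjusted p under 0.05, limma) and 2 with GFPneg replicate 3 kept. Leaving out 1 library gave 0 to 128, the extremes without GFPpos replicate 3 and without GFPneg replicate 2. The replicate block gave 259 calls, 180 higher and 79 lower, 48 of them shared. It uses 2 pairs, since GFPpos replicate 3 has no partner. Same-numbered libraries correlated at 0.169 and 0.125 in their deviations in IL-12+IL-21, and at -0.0181, 0.0556 and 0.129 in the Th17 culture (IL-1b+IL-6+IL-23). Deviations of 2 GFPneg libraries from their mean mirror each other, so the IL-12+IL-21 correlations cannot decide whether same-numbered libraries are pairs. Ribosomal protein shares in IL-12+IL-21 were close within a number (36.9% and 37.1% in replicates 1, 42.7% and 42.5% in replicates 2). In the Th17 culture they did not match by number. The interaction had 0 calls except 1 with a pseudocount of 5 and 2 with the replicate block, and 0 to 1 with 1 library left out, the calls arising without IL-12+IL-21 GFPpos replicate 3 or without IL-1b+IL-6+IL-23 GFPneg replicate 1. Of the named genes' differences under all settings, 1836 kept direction and side of the threshold, 168 lost and 62 gained a call, and 32 changed sign. With GFPneg replicate 3 kept these were Mgst2 (-0.60), Hmgn2 (0.97), Ifng (-0.13), Il10ra (-0.29), Ifi44 (-0.74), Gbp9 (0.42), H2-T23 (0.083), Mcm6 (1.37), Mcm2 (0.69), Ube2c (1.73), Ndufs6 (-0.15), Ighm (0.59), Xcr1 (0.52), Cd8b1 (0.89) and Csf3r (0.29). With median-ratio scaling they were Psmd4 (-0.096), Ly6g (-0.19) and Il12rb2 (-0.020), with quantile scaling Ly6g (-0.24), with the replicate block Cd8b1 (0.057), TDTOMATO (-0.092) and Tbx21 (-0.0065), and with array weights Cd8b1 (0.33). With 1 library left out, values that changed sign ranged over Cd8b1 (-0.38 to 0.13), Ly6g (-0.28 to 0.62), TDTOMATO (-0.09 to 0.57), Tbx21 (-0.11 to 0.97) and Il12rb2 (-0.049 to 0.61). The cause was not tested. The unknown depth limits every value near 1 TPM.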

Other observations

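No call was held by the groups that follow. Over 20 genes of JAK and STAT signalling and its feedback, the median difference was 0.31 (0.020 with median-ratio scaling), and Stat4, the signal carrier of IL-12, was at 36.1, 19.7 and 34.9 TPM in GFPpos libraries and at 17.6 and 15.9 TPM in GFPneg libraries (limma, adjusted p = 0.324). Over 16 T cell receptor response genes the median was 0.17 (-0.11 with median-ratio scaling), over 16 interferon-inducible GTPase genes 0.0094 and over 16 type I interferon-stimulated genes 0.15 (-0.13 with median-ratio scaling). Batf, an AP-1 factor of Th17 cells, was at 122, 98.4 and 146 TPM in GFPpos libraries and at 78.1 and 69.7 TPM in GFPneg libraries (adjusted p = 0.235).

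Il2, chosen after its values were seen, was at 51.0, 36.2 and 106.9 TPM in GFPpos libraries and at 269.6 and 78.2 TPM in GFPneg libraries (adjusted p = 0.203), with overlap. Ltb, the lymphotoxin beta gene and likewise chosen, was at 47.6, 47.1 and 63.4 TPM in GFPpos libraries and at 69.2 and 108.4 TPM in GFPneg libraries (adjusted p = 0.27). The undescribed row TDTOMATO was at 5.39, 5.36 and 14.9 TPM in GFPpos libraries and at 5.73 and 5.86 TPM in GFPneg libraries (adjusted p = 0.735).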
